A study of Homo sapiens with 12 samples.

Results

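The small nucleolar RNA (snoRNA) host genes were examined in K562 cells treated with the USP7 inhibitor FT671. They were taken as every gene whose GENCODE symbol begins with SNHG and a digit, together with GAS5, ZFAS1, EPB41L4A-AS1 and DANCR. This gave 32 of the 60609 genes in the count files, all of them annotated as lncRNA genes, and 27 of these were among the 13895 genes that passed the filter on low counts. K562 is an established human cell line from a chronic myeloid leukemia, and FT671 is a small molecule that inhibits the deubiquitinase USP7. RNA-seq was performed on 3 libraries from cells given DMSO and 3 from cells given 10 μM FT671, each for 48 h, from total RNA depleted of ribosomal RNA. The paper describes the 3 libraries of a group as independent experiments, all in this 1 cell line and at 1 dose and 1 time. The comparison was made to see how the host genes moved beside the mRNAs of ribosomal proteins.

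A snoRNA host gene carries the sequence of 1 or more snoRNAs in its introns. After splicing, the intron is debranched and trimmed to the mature snoRNA, which guides the modification of ribosomal RNA: box C/D snoRNAs direct 2′-O-methylation, box H/ACA snoRNAs direct pseudouridylation, and scaRNAs do the same for spliceosomal RNAs in Cajal bodies. The spliced exons of many non-coding hosts are degraded when they are translated, by nonsense-mediated decay. Several hosts share with ribosomal protein genes a 5′ terminal oligopyrimidine (TOP) start, a C followed by a run of pyrimidines, which places translation under the control of mTORC1.

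The annotated starts of the hosts differed in this feature. The sequences are shown to set hosts with and without a TOP-type start side by side. Each runs from 20 bases before the annotated start to the 30 bases that begin with it, and capitals mark the pyrimidine run where the start is a C followed by at least 4 pyrimidines.
SNHG12: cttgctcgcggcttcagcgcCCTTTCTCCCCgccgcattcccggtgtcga
SNHG4: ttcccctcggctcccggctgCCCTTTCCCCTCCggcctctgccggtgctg
ZFAS1: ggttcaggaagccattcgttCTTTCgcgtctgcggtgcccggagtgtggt
SNHG5: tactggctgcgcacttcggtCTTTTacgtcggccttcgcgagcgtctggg
SNHG32: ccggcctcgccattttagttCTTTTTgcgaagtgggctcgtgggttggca
SNHG19: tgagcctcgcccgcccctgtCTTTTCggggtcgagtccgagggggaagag
SNHG17: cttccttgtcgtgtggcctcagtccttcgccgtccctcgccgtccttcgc
GAS5: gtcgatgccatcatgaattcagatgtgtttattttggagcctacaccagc
SNHG16: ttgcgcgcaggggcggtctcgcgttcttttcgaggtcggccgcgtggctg
DANCR: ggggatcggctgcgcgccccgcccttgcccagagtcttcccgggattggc
The sequences are from RefSeq on GRCh38.p14. Their positions were SNHG12 chr1:28581844-28581893 (minus strand), SNHG4 chr5:139274081-139274130 (plus strand), ZFAS1 chr20:49278622-49278671 (plus strand), SNHG5 chr6:85678704-85678753 (minus strand) and SNHG32 chr6:31834896-31834945 (plus strand). The others were SNHG19 chr16:2155329-2155378 (minus strand), SNHG17 chr20:38435299-38435348 (minus strand), GAS5 chr1:173869016-173869065 (minus strand), SNHG16 chr17:76557744-76557793 (plus strand) and DANCR chr4:52712374-52712423 (plus strand).

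RefSeq promoters, from 250 bases before the start to 50 after it, were matched for 28 of the 32 hosts by symbol, without SNHG15, SNHG6, SNHG9 and SNHG25. A TOP-type start was present in 7 of the 28 (25%), against 4.04% of 27305 promoters of all genes. Of the hosts that rose after FT671, 5 of 16 with a promoter had it (SNHG12, SNHG4, ZFAS1, SNHG5 and SNHG32). Among those tested that did not pass the test it was found in 1 of 8, SNHG19, and the remaining match was the untested SNHG18. The letters CACGTG, the E-box, which reads the same on both strands, were in 2 of 28 promoters (SNHG7 and SNHG30; 7.14%, against 7.43% of all promoters). CCGGAA, searched on both strands, was in 5 of 28 (SNHG8, SNHG16, SNHG20, SNHG21 and SNHG26; 17.9%, against 17.6%). By their letters these 2 motifs cannot overlap each other, and a match describes letters at the annotated start, which need not be the start used in K562 cells. Promoters were matched for 63 of the 79 ribosomal protein genes, and of these 43 had a TOP-type start, 3 had CACGTG and 34 had CCGGAA. With 79.7% of the genes matched, below the 80% required here before shares of a set are compared, these counts are given as a description of the matched promoters only.

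The libraries held between 4555220 and 14250500 counts, and 3 counts, taken as the smallest detectable level, corresponded to 0.211 to 0.659 CPM (counts scaled to the library size). This floor allows for counting error alone, although the reads carried no molecular identifiers and replicates differed by more than counting error. Depth was not balanced, with 5320245 counts in DMSO replicate 3 and 11437804 in FT671 replicate 3. All 9 erythroid markers listed for K562 passed the filter, and 4 rose (HBZ most, by 1.79 on the log2 scale) and 5 fell. At the same adjusted p of 0.05, 23.6% of all genes tested rose and 26.5% fell. Of 12 markers of other cell types, 6 passed, MS4A1 had 0 counts in every library, CD14, CDH1, ALB and CD3E were near 0, and COL1A2 averaged 1.14 CPM in DMSO and 0.760 CPM after FT671. The summed level of these 12 was 155 to 159 CPM in DMSO and 209 to 211 CPM after FT671, carried by EPCAM, LYZ and CD3D, which rose by 0.49, 0.49 and 0.44 on the log2 scale, and their part in the results was not tested. The counts are relative to the library, so that a change in RNA per cell cannot be told apart from a change in other transcripts.

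Most of the snoRNA host genes tested were higher after FT671. Of the 27 tested, 18 rose and 0 fell at an adjusted p-value of 0.05 by edgeR's quasi-likelihood test, which called 23.6% of all genes tested higher and 26.5% lower. At 1e-05, the threshold of the study's methods, 4 were higher (SNHG12, SNHG17, SNHG15 and GAS5) against 1.79% of all genes, and 0 were lower against 4.13%. At an unadjusted p of 0.05, 21 were higher and 1, SNHG26, was lower, against 26.6% and 29.5% of all genes. DESeq2's Wald test called 19 hosts higher and 0 lower at an adjusted p of 0.05, against 21.6% and 22.5% of the genes to which it gave an adjusted p. In 20 hosts every FT671 library lay above every DMSO library, as in 26.8% of all genes, and in 2, DANCR and SNHG26, every FT671 library lay below, as in 30.3%. The median log2 fold change of the 27 was 0.61, with a range from −0.42 to 1.49, and that of all genes tested was −0.010. The plot of levels by library shows the 27 hosts over almost 3 orders of magnitude.

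**Figure D1:**
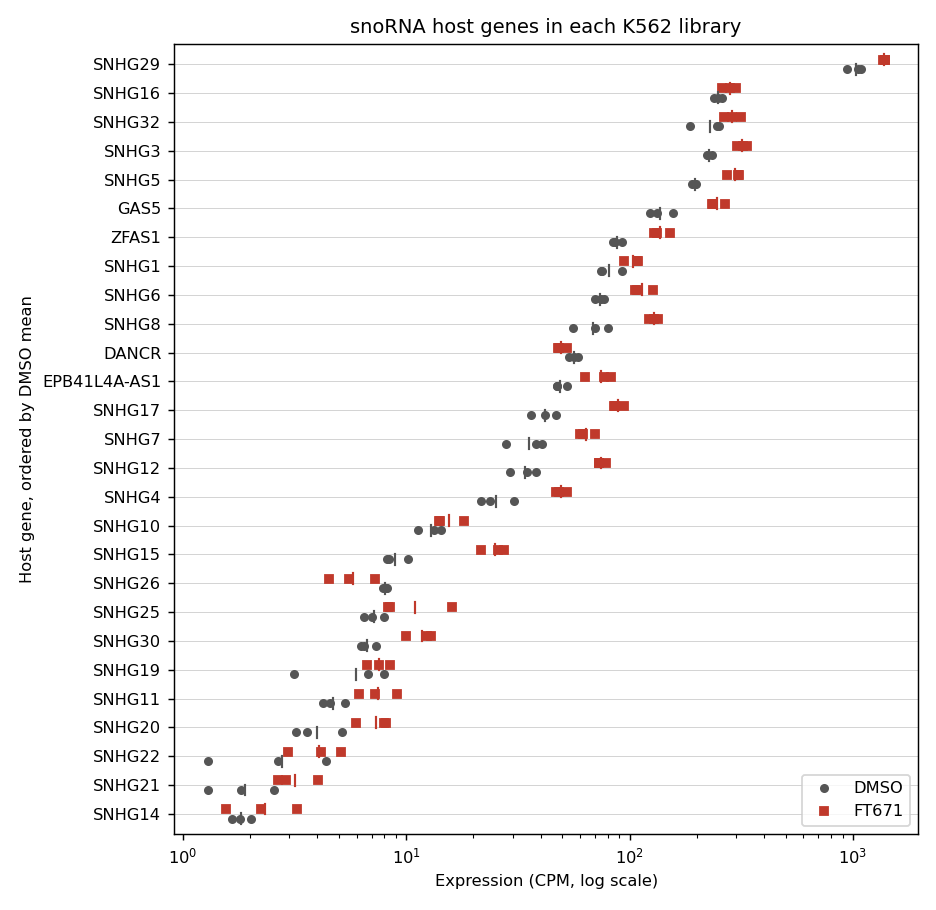
Expression of the 27 tested host genes in each K562 library, in CPM on a log axis, with DMSO libraries as grey circles, FT671 libraries as red squares and short vertical lines for the group means (n = 3 each). SNHG29 stands apart at the top with about 1027 CPM in DMSO, and the red points lie right of the grey ones in 20 genes and left of them in DANCR and SNHG26.

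Summed over all 32 hosts, expression rose from 2684 ± 161 CPM in DMSO to 3797 ± 63.3 CPM after FT671 (SD, n = 3 each), a ratio of 1.42. The sums were 2769, 2784 and 2498 CPM in DMSO replicates 1, 2 and 3 and 3745, 3780 and 3868 CPM in the FT671 replicates, without overlap. SNHG29 alone gave 38.3% of the sum in DMSO and 36.3% after FT671, and without it the sum went from 1657 ± 84.3 to 2417 ± 60.9 CPM (ratio 1.46). The ratio was thus no smaller without the most abundant member, and no test was made of these sums.

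Most mRNAs of the 79 ribosomal proteins rose beside them. Of these, 63 were higher, 1 was lower and 15 did not pass 0.05, beside 23.6% of all genes tested higher and 26.5% lower. The median log2 fold change of these mRNAs was 0.40. Their summed level went from 64939 ± 7109 to 82873 ± 1609 CPM (SD, n = 3 each), a ratio of 1.28. DMSO replicate 3 had the lowest sum, 57145 CPM, and the other libraries of its group held 66606 and 71067 CPM, against 81813 to 84725 CPM after FT671. Per 1000 CPM of ribosomal protein mRNA, the hosts held 41.6, 39.2 and 43.7 CPM in DMSO and 44.2, 46.0 and 47.3 CPM after FT671. The groups did not overlap in this ratio, but the distance between the nearest libraries, DMSO replicate 3 and FT671 replicate 1, was smaller than the spread within either group. Without DMSO replicate 3, the median of the hosts was 0.58 and that of the ribosomal protein mRNAs 0.31, the lowest value for the latter in any of the alternatives.

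**Figure D2:**
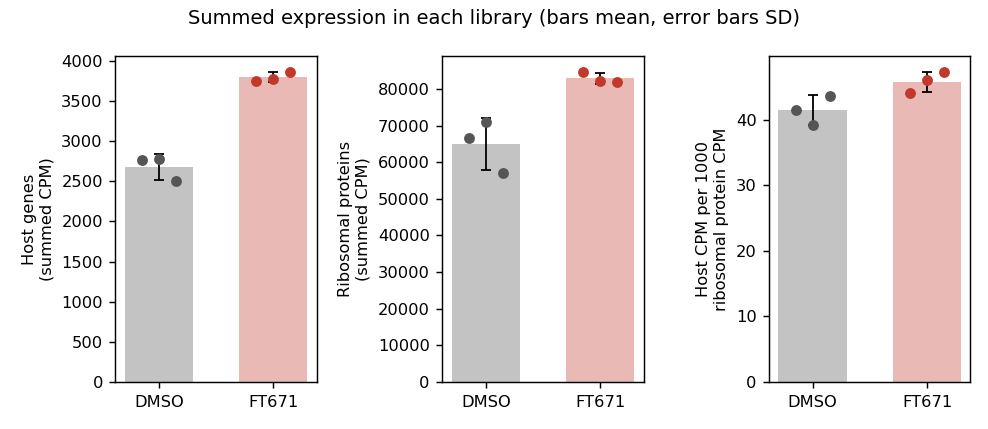
Summed CPM of the 32 host genes (left), summed CPM of the 79 ribosomal protein mRNAs (middle) and their ratio as host CPM per 1000 ribosomal protein CPM (right), with a point for each library in the order of the replicates, bars for the mean and error bars for the SD (n = 3 each). The sums of the hosts lie between 2498 and 2784 CPM in DMSO and between 3745 and 3868 CPM after FT671, and the ratio moves from a mean of 41.5 to 45.8.

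RPL28 and RPL11 were among the ribosomal protein mRNAs with the highest mean CPM. RPL11 went from 2142 ± 193 to 3044 ± 34.7 CPM (SD, n = 3 each), and its log2 fold change was 0.51 (edgeR adjusted p = 8.23e-05). RPL28 did not pass the test, at 2664, 3274 and 2246 CPM in DMSO and 3252, 3259 and 3319 CPM after FT671 (log2 fold change 0.26, SE 0.106, edgeR adjusted p = 0.0504). The highest log2 fold changes were those of RPS3A (1.54) and RPL21 (1.11), and the lowest those of RPL6 (−0.73) and RPL15 (0.13, edgeR adjusted p = 0.184). RPL6 fell from 89.5 ± 5.58 to 53.9 ± 2.09 CPM (SD, n = 3 each; edgeR adjusted p = 1.01e-05). RPS3A, RPL21 and RPL6 had means of only 12.3, 9.99 and 89.5 CPM in DMSO. These genes have many processed pseudogenes that share their sequence, so that their values are uncertain. Some other ribosomal protein mRNAs had lower means still, down to 1.87 CPM in DMSO, and the cause was not tested.

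The hosts of box H/ACA snoRNAs included the gene with the highest log2 fold change. RefSeq and GENCODE place H/ACA snoRNAs alone in 9 of the tested hosts, and 8 of them rose, with a median log2 fold change of 0.83. Of the 11 tested hosts of C/D snoRNAs alone, 7 rose, with a median of 0.36. The 3 hosts of both classes had a median of 0.83, and 2 of them rose. The 4 hosts of scaRNAs had a median of 0.51, and 1 rose. Beside these counts, 23.6% of all genes tested were called higher. In ribosomal protein genes, the medians were 0.38 in the 11 that host H/ACA snoRNAs and 0.38 in the 14 that host C/D snoRNAs. These are descriptions of small groups that were formed after the values were known, and the difference between the classes was not tested.

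**Figure D3:**
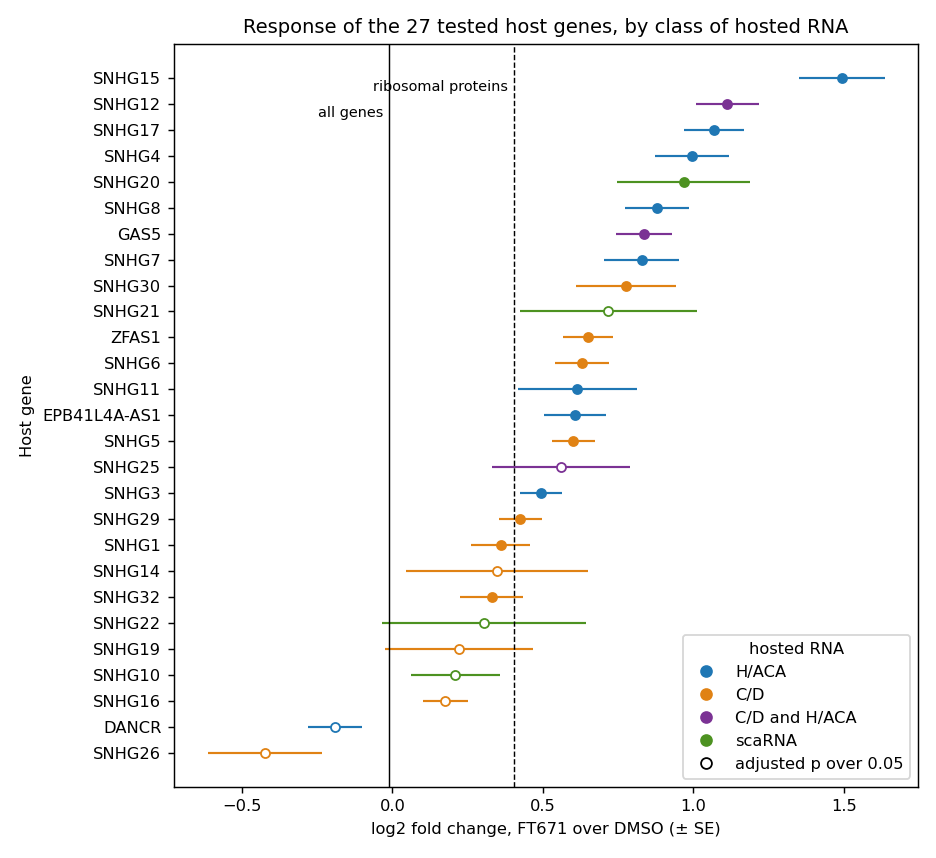
Log2 fold change (FT671 over DMSO) of the 27 tested host genes with its standard error, coloured by the class of the hosted RNA, filled where the adjusted p is under 0.05. The solid line marks the median of all genes (−0.010) and the dashed line that of the ribosomal protein mRNAs (0.40), and 4 of the 5 uppermost points belong to genes with an H/ACA snoRNA.

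SNHG15 (chr7:44983019-44986961, minus strand), host of SNORA9, was at 8.38, 8.24 and 10.2 CPM in DMSO replicates 1, 2 and 3 and 27.5, 25.8 and 21.7 CPM in the FT671 replicates. The groups were far apart, and the rise was 2.81-fold (log2 fold change 1.49, SE 0.143, edgeR adjusted p = 1.84e-06). SNHG17 (chr20:38419638-38435409, minus strand) contains the SNORA71 cluster and was at 46.7, 42.0 and 36.2 CPM in DMSO and 94.8, 86.2 and 85.0 CPM after FT671. It rose 2.10-fold with a wide gap between the groups (log2 fold change 1.07, SE 0.101, edgeR adjusted p = 1.58e-06). SNHG4 (chr5:139274102-139284899, plus strand), host of SNORA74A and SNORA74D, was at 21.7, 23.8 and 30.3 CPM in DMSO and 46.9, 52.7 and 48.5 CPM after FT671 and rose as well (log2 fold change 0.996, SE 0.122, edgeR adjusted p = 1.64e-05). It lies on the opposite strand of SIL1, whose log2 fold change was −0.20. It also overlaps the entry ENSG00000280987, annotated as MATR3, which had 1 to 11 reads in a library and was not tested.

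SNHG8 (chr4:118278703-118285316, plus strand), host of SNORA24, was at 80.1, 70.0 and 55.8 CPM in DMSO and 133, 128 and 123 CPM after FT671. Within DMSO it was lowest in replicate 3, and all FT671 libraries lay above the highest DMSO library (log2 fold change 0.88, SE 0.108, edgeR adjusted p = 1.58e-05). SNHG7 (chr9:136721366-136728184, minus strand), host of SNORA17A and SNORA17B, was at 38.2, 40.8 and 27.9 CPM in DMSO and 60.2, 61.7 and 70.0 CPM after FT671, again with the lowest value in DMSO replicate 3 (log2 fold change 0.83, SE 0.124, edgeR adjusted p = 9.27e-05). EPB41L4A-AS1 (chr5:112160526-112164818, plus strand) carries SNORA13 and was at 47.2, 52.4 and 47.1 CPM in DMSO and 63.5, 82.5 and 76.7 CPM after FT671. It rose without overlap of the groups (log2 fold change 0.61, SE 0.103, edgeR adjusted p = 0.000271), while EPB41L4A on the opposite strand averaged 1.45 and 1.34 CPM.

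SNHG3 (chr1:28505980-28510892, plus strand), host of SNORA73A and SNORA73B, was at 223, 234 and 224 CPM in DMSO and 301, 321 and 335 CPM after FT671. Its libraries varied little within a group, and it rose by 0.49 on the log2 scale (SE 0.0694, edgeR adjusted p = 5.37e-05). It overlaps RCC1 on the same strand with starts 37 bases apart, and RCC1 rose by 0.60, so that reads of the shared region cannot be assigned to either. SNHG11 (chr20:38446343-38450940, plus strand), host of SNORA60 and SNORA71E, was at 5.33, 4.58 and 4.25 CPM in DMSO and 9.11, 6.13 and 7.24 CPM after FT671 from 23 to 81 reads (log2 fold change 0.61, SE 0.199, edgeR adjusted p = 0.0191). Its call was lost without DMSO replicate 2, without FT671 replicate 1, without FT671 replicate 3 and in thinned counts, with log2 fold changes of 0.58, 0.50, 0.64 and 0.43.

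DANCR (chr4:52712325-52723623, plus strand), known as a lncRNA that holds back differentiation of progenitor cells, was the tested H/ACA host that did not rise. It was at 56.2, 59.0 and 53.6 CPM in DMSO and 52.6, 47.8 and 48.2 CPM after FT671. All FT671 libraries lay below all DMSO libraries, by a margin smaller than 1 SD of either group, and the difference did not pass the test (log2 fold change −0.19, SE 0.0906, edgeR adjusted p = 0.0935). It passed only without DMSO replicate 3, at a log2 fold change of −0.23. The unnamed gene ENSG00000286161 on its opposite strand rose by 0.69.

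GAS5 and SNHG12 host snoRNAs of both classes. GAS5 (chr1:173858559-173868882, minus strand), growth arrest specific 5, is known as a TOP gene whose spliced RNA accumulates in arrested cells, although its RefSeq start shown among the sequences lies upstream of the GENCODE span and has no pyrimidine run. RefSeq places 10 C/D snoRNAs and 1 H/ACA snoRNA within it. It was at 157, 132 and 123 CPM in DMSO replicates 1, 2 and 3 and 236, 233 and 267 CPM in the FT671 replicates. The lowest FT671 library was well above the highest DMSO library, and the rise was 1.78-fold (log2 fold change 0.83, SE 0.0930, edgeR adjusted p = 6.96e-06). Of the genes that overlap it on the opposite strand, GAS5-AS1 rose by 0.67, and ZBTB37, which starts 800 bases away, had a log2 fold change of −0.14 (edgeR adjusted p = 0.391).

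SNHG12 (chr1:28578538-28583132, minus strand), which contains SNORD99, SNORA16A, SNORA44 and SNORA61, was at 37.9, 34.9 and 29.0 CPM in DMSO and 78.2, 72.7 and 73.0 CPM after FT671. It had the lowest adjusted p of the hosts, with a 2.16-fold rise (log2 fold change 1.11, SE 0.104, edgeR adjusted p = 1.51e-06). TRNAU1AP (chr1:28553085-28578545) on the opposite strand fell by 0.86. It overlaps SNHG12 only where the 3′ ends of both genes meet, and their starts lie 30047 bases apart. The pyrimidine run at the RefSeq start of SNHG12, shown among the sequences, was 11 bases long. That start lies inside the GENCODE span and not at its edge, as do the RefSeq starts of ZFAS1, SNHG5, SNHG32 and SNHG19. SNHG25 (chr17:64145937-64146476, plus strand) has SNORD104 and SNORA50C and was at 6.51, 7.05 and 7.95 CPM in DMSO and 15.99, 8.48 and 8.31 CPM after FT671. FT671 replicate 1 was high and the other FT671 libraries lay just above DMSO, and the difference did not pass the test (log2 fold change 0.56, SE 0.230, edgeR adjusted p = 0.0560). It passed 0.05 in 9 of 18 alternatives, DESeq2's Wald test and the replicate block among them, and the log2 fold change ranged from 0.25 without FT671 replicate 1 to 0.77 without FT671 replicate 3.

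The most abundant host, SNHG29, belongs to the C/D class. SNHG29 (chr17:16438767-16480249, plus strand), host of SNORD49A, SNORD49B and SNORD65, was at 1053, 1091 and 938 CPM in DMSO and 1385, 1369 and 1386 CPM after FT671. Per kilobase of its canonical transcript it reached 2319 CPM in DMSO, followed by SNHG16 (500.1), SNHG32 (217), GAS5 (179), SNHG5 (149) and SNHG3 (103). This order holds for the canonical length only, as the counts are of whole genes. The canonical transcripts of SNHG29 and SNHG16 are 0.443 and 0.498 kb long, and their merged exons 8947 and 5776 bases. The rise of SNHG29 was small beside those of SNHG12 and SNHG17, but the FT671 libraries hardly differed among themselves (log2 fold change 0.43, SE 0.0717, edgeR adjusted p = 0.000244). LRRC75A on the opposite strand rose by 0.44, nearly the same value, and without the strand the reads of this pair cannot be told apart.

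SNHG5 (chr6:85650491-85678932, minus strand), host of SNORD50A and SNORD50B, was at 199, 197 and 191 CPM in DMSO and 274, 306 and 309.5 CPM after FT671. The DMSO libraries lay close together and all FT671 libraries well above them (log2 fold change 0.60, SE 0.0718, edgeR adjusted p = 1.27e-05). ZFAS1 (chr20:49278178-49299600, plus strand), which starts 248 bases from ZNFX1 on the opposite strand and hosts SNORD12, SNORD12B and SNORD12C, was at 86.3, 92.3 and 84.7 CPM in DMSO and 128, 133 and 151 CPM after FT671 (log2 fold change 0.65, SE 0.0830, edgeR adjusted p = 2.27e-05). ZNFX1 had a log2 fold change of −0.15 (edgeR adjusted p = 0.210). SNHG6, host of SNORD87, was at 77.2, 70.2 and 74.7 CPM in DMSO and 106, 108 and 128 CPM after FT671 and rose (log2 fold change 0.63, SE 0.0895, edgeR adjusted p = 5.79e-05), and MCMDC2 on its opposite strand rose by 0.76.

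SNHG1 (chr11:62851978-62855953, minus strand), host of the SNORD22 and SNORD25 to SNORD31 cluster, was at 92.8, 74.5 and 75.2 CPM in DMSO and 94.4, 109 and 108 CPM after FT671. The lowest FT671 library was just above the highest DMSO library, and the rise passed the test (log2 fold change 0.36, SE 0.0988, edgeR adjusted p = 0.00772). SLC3A2, which starts 51 bases away on the opposite strand and encodes the heavy chain of amino acid transporters, rose more, from 396 ± 28.2 to 725 ± 22.6 CPM (SD, n = 3 each; log2 fold change 0.87). SNHG30 (chr17:35568050-35574900, plus strand), host of SNORD7, was at 6.30, 7.33 and 6.47 CPM in DMSO and 12.9, 12.4 and 10.0 CPM after FT671 and rose (log2 fold change 0.78, SE 0.166, edgeR adjusted p = 0.00147). SNHG32 (chr6:31834608-31839766, plus strand), host of SNORD48 and SNORD52, was at 247, 252 and 186 CPM in DMSO and 316, 287 and 265 CPM after FT671. Its rise passed the test narrowly (log2 fold change 0.33, SE 0.105, edgeR adjusted p = 0.0179), and without FT671 replicate 1 it did not, at a log2 fold change of 0.27.

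The other C/D hosts did not pass the test. SNHG16 (chr17:76557727-76670985, plus strand), host of SNORD1A, SNORD1B and SNORD1C, was at 238, 249.7 and 259.5 CPM in DMSO and 259, 283 and 299.7 CPM after FT671. Its groups overlapped narrowly, and it passed 0.05 in 8 of 18 alternatives (log2 fold change 0.18, SE 0.0745, edgeR adjusted p = 0.0636). SNHG19 was at 6.72, 7.97 and 3.14 CPM in DMSO and 8.44, 7.58 and 6.70 CPM after FT671, with DMSO replicate 3 far below the rest of its group (log2 fold change 0.22, edgeR adjusted p = 0.476). SNHG14, the long transcript of the imprinted Prader-Willi region that hosts the SNORD115 and SNORD116 clusters, had 26, 22 and 9 reads in DMSO and 7, 18 and 25 after FT671 (log2 fold change 0.35, edgeR adjusted p = 0.359). At this depth the test found no difference in SNHG14 (SE 0.303). SNHG26 (chr7:22854126-22872952, plus strand), host of SNORD93, had the lowest log2 fold change of the hosts and was at 8.24, 7.88 and 8.13 CPM in DMSO and 5.55, 4.51 and 7.24 CPM after FT671. Its groups did not overlap, and the difference missed the threshold (log2 fold change −0.42, SE 0.190, edgeR adjusted p = 0.0785) but passed it without FT671 replicate 3 (−0.69).

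Of the scaRNA hosts, SNHG20 rose and the others did not pass the test. SNHG20 (chr17:77086716-77099902, plus strand), host of SCARNA16, was at 3.60, 3.21 and 5.18 CPM in DMSO and 7.995, 5.95 and 8.13 CPM after FT671 (log2 fold change 0.97, SE 0.222, edgeR adjusted p = 0.00240). SEC14L1, which overlaps it on the same strand, fell by 0.37, the opposite direction. SNHG21, host of SCARNA15, had only 37, 20 and 7 reads in DMSO and 12, 16 and 45 after FT671, and its groups were barely separate (log2 fold change 0.72, SE 0.293, edgeR adjusted p = 0.0551). It passed 0.05 in 3 of 17 alternatives. SNHG10, host of SCARNA13, was at 13.3, 14.4 and 11.3 CPM in DMSO and 18.2, 14.1 and 14.2 CPM after FT671 with overlapping groups (log2 fold change 0.21, SE 0.147, edgeR adjusted p = 0.255), and GLRX5 on its opposite strand rose by 0.40. SNHG22, host of SCARNA17, had 63, 29 and 7 reads in DMSO and 23, 23 and 33 after FT671 (log2 fold change 0.31, SE 0.339, edgeR adjusted p = 0.476).

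The remaining 5 hosts did not pass the filter. SNHG9, host of SNORA78, had 12, 15 and 3 reads in DMSO and 5, 12 and 5 after FT671, and RPS2, which starts 54 bases away on the opposite strand, rose by 0.31. SNHG31 had 0 to 6 reads in a library, SNHG18 had 0 or 1 and SNHG27 had 0 to 2. SNHG28 had none in any library, which allows up to 0.211 CPM in the deepest one.

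The neighbours that overlap a host or share its start region moved in both directions. Among all genes tested, 23.6% were called higher and 26.5% lower. Among those on the opposite strand of a host that rose, GAS5-AS1, LRRC75A, MCMDC2 and SLC3A2 rose too, TRNAU1AP fell, and SIL1, DIPK1B (0.13), ZBTB37, ZNFX1 and EPB41L4A did not pass the test. EPB41L4A had 6 to 18 reads in a library, and its fitted log2 fold change (0.11, SE 0.401) and its mean CPM, which was lower after FT671, differed in sign. Around the hosts that did not pass it, 3 neighbours rose, GLRX5 (SNHG10) by 0.40, ENSG00000286161 (DANCR) by 0.69 and MYO5B (SNHG22) by 1.21 from only 1.44 CPM. TRAF7 (SNHG19), ACAA2 (SNHG22), UBE3A (SNHG14) and ST6GALNAC1 (SNHG16) had log2 fold changes of 0.13, −0.29, −0.19 and −0.13 and did not pass it either. The strand setting of the counting is not given in the sources used here, so that reads of a host and of an antisense gene may have been counted for either.

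**Figure D4:**
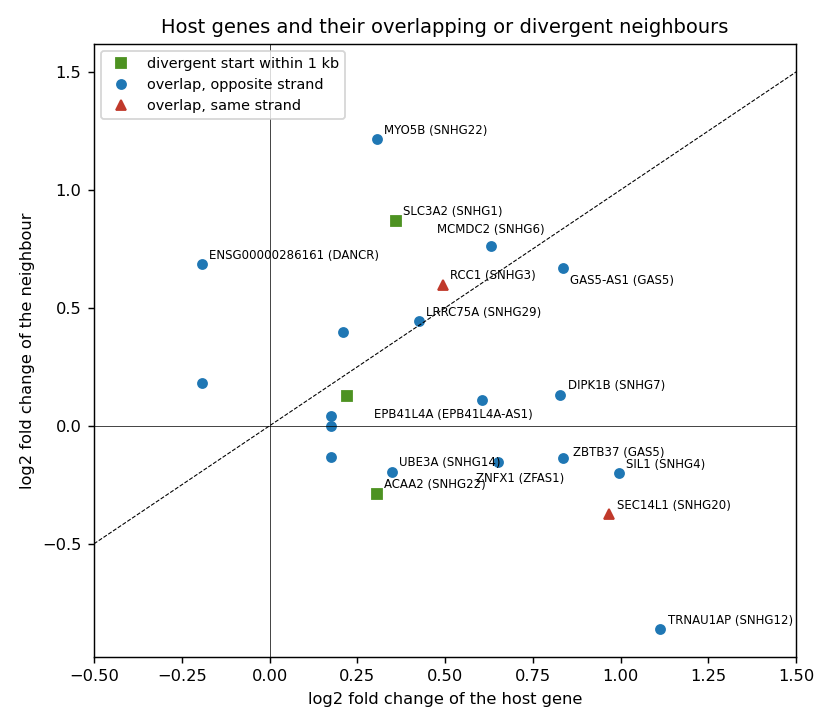
Log2 fold change (FT671 over DMSO) of tested genes that overlap a host or start within 1 kb of its start on the opposite strand, against the log2 fold change of the host, which is named in brackets where a point is labelled. The dashed line marks equal changes, and TRNAU1AP (−0.86) lies farthest below it, beside SNHG12 (1.11).

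Few of the annotated snoRNA genes within the hosts received counts, and the cause was not tested. GENCODE lists 145 snoRNA and scaRNA genes within the hosts, of which 13 had any count and 3 passed the filter. Of the 145, 84 lie in SNHG14, which itself had only 7 to 26 reads in a library, and no snoRNA in it had a count. GENCODE lists 0 within GAS5, where RefSeq places 11, so 13 of 145 is not a rate for the well expressed hosts. The letters of 2 of these are given as DNA, for SNORD104 in SNHG25 (chr17:64146083-64146152, plus strand), whose own counts rose, and for SNORA73B in SNHG3 (chr1:28508559-28508762, plus strand), which had more counts than its host. In SNORD104 the capitals mark the C box (GTGATGA) and the D box (CTGA), and in SNORA73B the ACA box near the 3′ end.
SNORD104: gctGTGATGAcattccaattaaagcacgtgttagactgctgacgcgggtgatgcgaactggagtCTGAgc
SNORA73B: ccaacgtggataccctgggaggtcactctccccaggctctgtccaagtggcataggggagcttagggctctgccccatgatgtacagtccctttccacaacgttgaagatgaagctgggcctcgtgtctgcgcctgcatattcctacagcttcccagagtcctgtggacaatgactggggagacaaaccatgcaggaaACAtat
Both were read from hg38 at the GENCODE positions, and they are 70 and 204 bases long.

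SNORD104 had 62, 43 and 10 reads in DMSO and 49, 56 and 73 after FT671, or 4.29, 3.94 and 1.85 CPM in DMSO and 10.9, 10.1 and 6.52 CPM after FT671. The groups did not overlap, and it rose (log2 fold change 1.26, SE 0.266, edgeR adjusted p = 0.00135), more than SNHG25 with 0.56. SNORA73B, the U17 snoRNA needed for processing of 18S ribosomal RNA, had 6445, 5587 and 1940 reads in DMSO and 2729, 2341 and 4332 after FT671, or 446, 512 and 359 CPM in DMSO and 606, 422 and 387 CPM after FT671. Its groups overlapped and the difference did not pass the test (log2 fold change 0.10, SE 0.147, edgeR adjusted p = 0.609), while SNHG3 rose by 0.49. SNORA74D in SNHG4 was at 16.9, 12.0 and 8.50 CPM in DMSO and 16.4, 14.1 and 16.1 CPM after FT671, also with overlap (log2 fold change 0.25, SE 0.193, edgeR adjusted p = 0.301), while SNHG4 rose by 0.996. The differences between a snoRNA and its host were not tested.

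The other genes that host snoRNAs differed by kind. GENCODE places a snoRNA on the same strand within 215 tested genes beside the hosts above, of which 90 rose and 49 fell, with a median log2 fold change of 0.15. The 28 ribosomal protein genes among them gave 26 rises and 0 falls by edgeR (median 0.39; also 26 and 0 by DESeq2's Wald test, and 27 and 0 at an unadjusted p of 0.05), and the 51 ribosomal protein genes without a snoRNA gave 37 rises and 1 fall (median 0.43). The 173 other protein-coding hosts were divided, with 58 rises and 47 falls (27.2%, beside 26.5% of all genes tested) and a median of 0.05. Of 14 other non-coding hosts, 6 rose and 2 fell (median 0.20). The share of rises was 92.9% in the ribosomal protein genes that host a snoRNA and 33.5% in the other protein-coding hosts, beside 66.7% in the snoRNA host genes and 23.6% in all genes, and the differences between these groups were not tested.

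Other TOP mRNAs were listed beside the hosts, since several hosts have such a start. Of 16 tested, 12 rose, 1 fell and 3 did not pass, beside 23.6% of all genes tested higher and 26.5% lower. The median log2 fold change of the 16 was 0.35. HNRNPA1, a splicing and export factor, rose most, from 215 ± 31.8 to 344 ± 36.8 CPM (SD, n = 3 each; log2 fold change 0.69), and EIF4B, a translation initiation factor, fell by 0.51. EEF1G had 0 counts in every library and was not tested. The 0 counts need not mean that EEF1G is not expressed, and their cause was not tested. The regulators of TOP mRNAs and of mTORC1 were mixed, with 9 of 17 higher (52.9%) and 5 lower (29.4%). CNBP, which binds TOP mRNAs, rose most in this list (0.44), and RPTOR, the scaffold subunit of mTORC1, fell most, from 64.3 ± 3.21 to 29.7 ± 7.59 CPM (SD, n = 3 each; log2 fold change −1.16). LARP1, which binds the TOP sequence itself, fell by 0.26.

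Several mRNAs of proteins that bind snoRNAs rose beside the hosts. Of the 8 core proteins of snoRNA particles, 6 were higher, 0 lower and 2 did not pass the test by edgeR (median log2 fold change 0.49). By the same test 23.6% of all genes were higher and 26.5% lower. DESeq2's Wald test also called 6 and 0, against 21.6% and 22.5% of all genes. At an unadjusted p of 0.05 edgeR called 6 higher and 0 lower, against 26.6% and 29.5%. NHP2, of the H/ACA particle, rose most, from 64.1 ± 8.12 to 108 ± 1.01 CPM (SD, n = 3 each; log2 fold change 0.74). FBL, the methyltransferase of the C/D particle, rose by 0.54, and DKC1, the pseudouridine synthase of the H/ACA particle, was at 227 ± 5.06 in DMSO and 222 ± 4.84 CPM after FT671 (log2 fold change −0.03, edgeR adjusted p = 0.761). Of 10 assembly factors, 5 were higher and 0 lower by edgeR, with RUVBL1, an ATPase of the R2TP complex, rising most (0.59). DESeq2's Wald test called 4 and 0 of them, and an unadjusted p of 0.05 in edgeR gave 6 and 0.

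The factors of nonsense-mediated decay moved in both directions. Of 19 tested, 9 rose (47.4%), 6 fell (31.6%) and 4 did not pass, beside 23.6% of all genes tested higher and 26.5% lower. The median log2 fold change of the list was 0.09. UPF3B rose most, from 25.6 ± 5.79 to 41.4 ± 3.68 CPM, and SMG6, the endonuclease of the pathway, fell most, from 30 ± 2.17 to 18.2 ± 3.16 CPM (SD, n = 3 each), with log2 fold changes of 0.74 and −0.69. UPF1, the central helicase, fell by 0.55.

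Across the 27 tested hosts, the log2 fold change had little relation to the level in DMSO (Pearson's r −0.049, Spearman's rho −0.096), to the GC content of the exons (0.098 and −0.023) or to the length of the canonical transcript (0.12 and 0.17). These are correlations across genes of the same libraries, which are not independent replicates, and no p is given. The merged exons covered the whole span of SNHG1, SNHG8, SNHG15, SNHG19 and EPB41L4A-AS1, since some annotated transcripts keep the introns. The counts of these hosts can therefore hold spliced and unspliced RNA together, and these were not told apart. The same limit applies in part to SNHG11, SNHG12, DANCR, SNHG3 and SNHG17, where the merged exons covered 98.4%, 92.8%, 90.1%, 83.2% and 75.5% of the span.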

How the data were processed

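RNA-seq counts of K562 cells treated with DMSO or FT671 (3 libraries each) were analyzed. Libraries had been made from total RNA by a KAPA HyperPrep protocol that removes ribosomal RNA (RiboErase), and paired-end reads came from a NextSeq500. STAR in two-pass mode, run by the authors against hg38, gave the raw read count per gene that they deposited. The STAR version, the annotation release and the strand setting are not given in the sources used here. The ChIP-seq samples of the series were not analysed here.

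Identifiers, without their version, were matched to GENCODE 44 (60295 of 60609 genes). Genes were filtered with edgeR's filterByExpr (13895 kept), scaled by TMM and compared by edgeR's quasi-likelihood test over all 6 libraries without covariates, with Benjamini-Hochberg adjustment over all genes tested. CPM values used TMM-scaled library sizes, and SDs are over 3 libraries. P-values measure the spread between these libraries. Replicates of a group differed by more than counting error (chi-square per degree of freedom 2.07 to 8.73). Tools were Python 3.11.15, samtools 1.23.1, edgeR 4.0.16, DESeq2 1.42.0 and limma 3.58.1 under R 4.3.3, and the fit was tested on simulated data.

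The host genes and the gene lists were chosen with earlier results of these data known, and the lists were written by hand from gene symbols. Every host was accounted for. Of the ribosomal protein genes, the 3 with the highest mean CPM, the 2 with the highest and the 2 with the lowest log2 fold change were named, and of the other lists the largest rise and fall past 0.05. Also named were hosted snoRNAs past the filter and genes that overlap a host or start within 1 kb of it. FBL, DKC1, UPF1, LARP1 and the members of the marker lists were named after their values were seen. A few genes that fall under these rules are not reported here. Hosted RNAs were classed by their RefSeq and GENCODE names.

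Replicate numbers come from the sample labels. Same-numbered libraries deviated from their group means with a correlation across genes of 0.115, −0.061 and 0.140, so the numbers were not taken to pair the libraries. Alternatives were DESeq2's Wald test, its size factors, library totals, TMM without the 20 most counted genes, no filter, at least 10 counts in every library, a replicate block, loess corrections (span 0.3) for gene length and GC content with and without the block, counts thinned to the smallest library, and each library left out.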

Additional observations from a re-analysis of the deposited data

How the results depend on the processing

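The number of snoRNA host genes called higher was 18 and ranged from 17 (thinned counts) to 21 (DESeq2's size factors) over 18 alternatives, and their median log2 fold change from 0.56 (no filter) to 0.65 (replicate block with GC correction). No host was called lower, except 1 without DMSO replicate 3 (DANCR) and 1 without FT671 replicate 3 (SNHG26), so that leaving out single libraries gave a range of 0 to 1. Of the 18 calls, 16 were kept in every alternative, and those of SNHG11 and SNHG32 were not. The log2 fold change of SNHG14 turned from 0.35 to −0.063 in thinned counts, and the cause was not tested. With the replicate block, 20 hosts were higher and 0 lower (median 0.60), beside 68 and 1 ribosomal protein mRNAs (median 0.40), but same-numbered libraries did not deviate together in every pair. The ribosomal protein mRNAs called higher ranged from 51 (without FT671 replicate 1) to 74 (replicate block with GC correction). Of all genes tested, 23.6% were higher and 26.5% lower in the main fit, and 21.6% and 22.5% in DESeq2's Wald test. The shares of all genes in the other alternatives are not given here. A change in these counts can therefore not be told apart from a change in the calls over all genes. SNHG14, SNHG21 and SNHG22 had 7 to 63 reads in a library, which limits what could be detected in them.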
